A study of Mus musculus with 4 samples.

Results

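Erythroid progenitors were examined in 4 single-cell libraries of mouse bone marrow, as the cells in which at least 4 of 6 erythroid genes (Klf1, Car1, Ermap, Rhd, Epor and Gata1) had at least 1 unique molecular identifier (UMI). They numbered 339 of 34122 cells that passed the quality filters, of which control gave 149 cells, Mll3SI 109, Mll4SI 41 and Mll3/4SI 40. The source of every library was CD45.2+Kit+ bone marrow taken 10 weeks after transplantation, so the cells had been chosen on CD45.2, an allele of a leukocyte surface protein used to mark donor cells, and on Kit, the stem cell factor receptor. Besides control, the groups carried the names Mll3SI, Mll4SI or Mll3/4SI, after MLL3 and MLL4 (genes Kmt2c and Kmt2d), the large enzymes that place monomethylation on lysine 4 of histone H3 at enhancers. The labels do not spell out SI, and they give neither the number, sex nor age of the animals nor what the hashtag antibodies mark, and pooling of animals within a library cannot be told from them. Each group had 1 library, and cells of 1 library are not replicates, so no test was possible and every interval here is a 95% interval for counting error only.

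Erythroid progenitors arise from cells shared with megakaryocytes and mast cells. Erythropoietin, acting through its receptor Epor, keeps them alive, and Gata1, Klf1 and Tal1 switch on the genes for the red cell membrane, haem and globin while the stem cell factors Gata2 and Spi1 are turned down. The earliest committed cells carry Kit and much carbonic anhydrase message but almost no globin, and Kit is lost as haemoglobin accumulates, so a gate on Kit takes mainly the early part of the series.

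The libraries held 7152, 8617, 11187 and 7166 kept cells with medians of 17284.5, 14120, 13516 and 19644 gene UMIs in the order control, Mll3SI, Mll4SI and Mll3/4SI, which is the order of all sets of 4 values below. Any 2 libraries shared 16 to 29 cell barcodes, or 0.213% to 0.355% of the smaller library. Sex-linked transcripts set the libraries apart: summed over erythroid cells, Xist stood at 0.43, 0.37, 1462 and 1635 UMIs per 1000000 UMIs (CPM), and the Y-linked gene Eif2s3y at 86.7, 82.8, 0 and 0 CPM, at least 46.5-fold lower in Mll4SI and at least 43.5-fold lower in Mll3/4SI. The comparisons of Mll4SI and Mll3/4SI with control therefore also set animals with these transcripts against animals without them, and the 2 differences cannot be told apart. In the erythroid cells Kmt2c was present at 123, 113, 136 and 88.4 CPM and Kmt2d at 21.7, 26.8, 27.4 and 18.0 CPM. A count of 3′ ends does not check an altered protein.

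Proximal promoters of 4 of the 6 rule markers follow, shown because these genes define the cells and because the erythroid factors GATA1 and KLF1 read short words of this kind. The Gata1 window was searched but is not printed, and Car1 had no window. Each line gives the 250 bases before the RefSeq start of the gene (GRCm38.p6), 5′ to 3′ on the strand of the gene. The GENCODE gene starts of Klf1 and Ermap lie inside their windows, and that of Epor lies downstream of its window. For Klf1 and Epor the bases just after the RefSeq start were not found in a GENCODE transcript. Distances below therefore hold for the RefSeq start only. Capitals mark GATA words (AGATAA or AGATAG, and TGATAA or TGATAG) and the CACCC word CCNCNCCC, all searched on both strands. The windows are chr8:84901732-84901981 on the plus strand for Klf1, chr4:119189996-119190245 on the minus strand for Ermap, chr4:134864286-134864535 on the plus strand for Rhd and chr9:21963577-21963826 on the minus strand for Epor.
Klf1: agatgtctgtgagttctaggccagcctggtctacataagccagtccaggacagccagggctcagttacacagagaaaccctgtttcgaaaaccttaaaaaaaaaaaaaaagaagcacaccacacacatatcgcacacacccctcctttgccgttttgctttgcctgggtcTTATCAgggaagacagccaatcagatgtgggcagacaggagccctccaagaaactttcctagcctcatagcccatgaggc
Ermap: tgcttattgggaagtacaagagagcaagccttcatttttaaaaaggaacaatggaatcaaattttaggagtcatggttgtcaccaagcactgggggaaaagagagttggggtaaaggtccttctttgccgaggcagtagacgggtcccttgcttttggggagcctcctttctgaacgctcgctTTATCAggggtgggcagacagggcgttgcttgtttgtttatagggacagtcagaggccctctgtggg
Rhd: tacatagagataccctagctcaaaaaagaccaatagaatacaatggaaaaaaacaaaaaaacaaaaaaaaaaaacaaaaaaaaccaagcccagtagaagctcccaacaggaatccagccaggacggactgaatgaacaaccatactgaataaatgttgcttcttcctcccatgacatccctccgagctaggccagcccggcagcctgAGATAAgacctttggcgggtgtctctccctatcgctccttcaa
Epor: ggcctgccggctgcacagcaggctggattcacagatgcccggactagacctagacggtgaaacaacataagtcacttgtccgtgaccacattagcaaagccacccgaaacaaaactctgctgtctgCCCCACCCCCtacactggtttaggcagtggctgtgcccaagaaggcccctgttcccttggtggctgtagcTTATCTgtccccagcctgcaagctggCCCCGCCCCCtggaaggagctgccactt
A GATA word stood 80 bases before the start in Klf1, 67 in Ermap, 43 in Rhd and 54 in Epor, and the Gata1 window held none. Over the 32851 windows of the same length, 26.5% held a GATA word and 45.9% a CACCC word. CACCC words were found in 2 of the 5 rule markers with a window, with 4 matches in Epor and 3 in Gata1. Of the 10 genes most alike in detection, named below, 9 had a window, with 13 windows between them. A GATA word was found in 2 of these 9 genes and a CACCC word in 8. The words were chosen with the sequences at hand, and a match describes letters, not binding.

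Across all 4 libraries, 417 cells had 2 of the 6 markers, 206 had 3, 108 had 4, 105 had 5 and 126 had all 6. Just outside the rule, cells with 3 markers had Car2, a second carbonic anhydrase, at 427 CPM, and just inside it cells with 4 markers had it at 653 CPM. With all 6 markers the level was 1825 CPM. The genes of earlier cells ran the other way: Gata2, a factor of stem, mast and early progenitor cells, stood at 260, 250, 188, 91.5 and 59.7 CPM from 2 to 6 markers, and Cpa3, the mast cell carboxypeptidase, at 338, 121, 47.3, 26.1 and 12.3 CPM. Median depth also moved with the number of markers, from 14705.5 UMIs at 3 to 41089.5 UMIs at 6, and its part in these gradients was not tested.

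**Figure D1:**
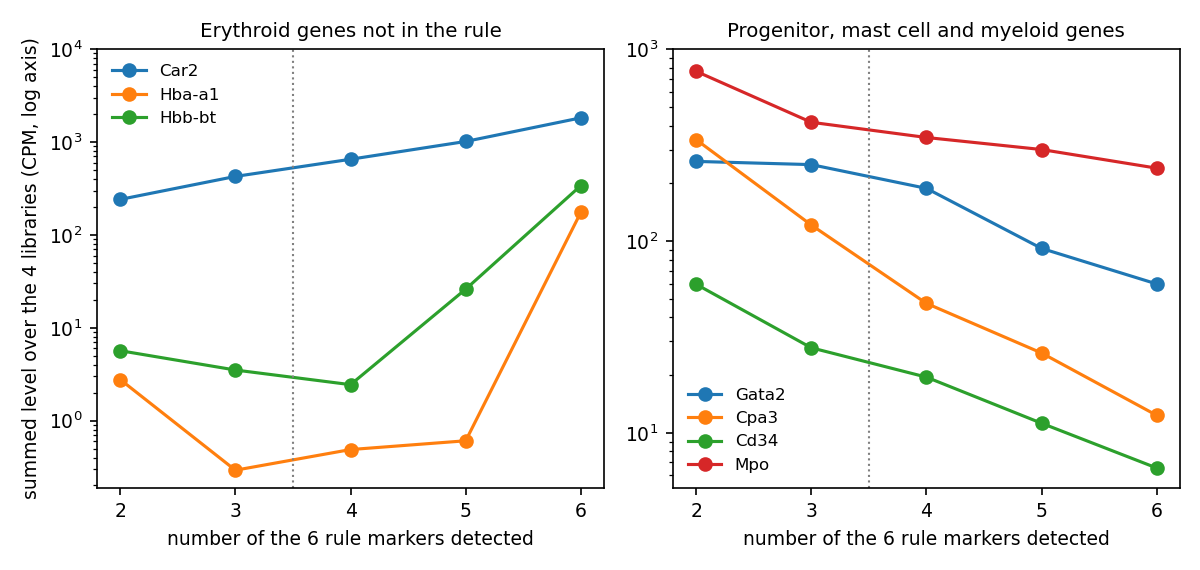
Level of 7 genes (CPM, log axis) against the number of rule markers detected, over all 4 libraries. Car2 is higher, and Gata2 and Cpa3 lower, in cells with 6 markers than in cells with 2, and the dotted line separates cells outside the rule from those inside it.

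Granulocytic cells, a kind that should lack these genes, seldom had a UMI of a marker. They were taken as the cells with at least 10 of 16 granule and granulocyte genes, and at 5000 UMIs per cell Car1 was detected in 1.35%, 1.04%, 0.712% and 0.484% of cells, against 95.3%, 97.2%, 92.7% and 95.0% of erythroid cells. The erythroid percentages are set by the rule, which chose cells for these genes, and describe no difference beyond it. Epor, the erythropoietin receptor, had a UMI in 22.8% of control erythroid cells and in 0.0228% of control granulocytic cells. Median depths before thinning were 26695, 23132, 38755 and 41776 UMIs for erythroid cells and 16961, 13411, 14436.5 and 19736 UMIs for granulocytic cells.

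Erythroid cells were a smaller share of kept cells in all 3 mutant libraries. Control had a share of 2.08% (1.76 to 2.44, Clopper-Pearson), Mll3SI one of 1.26% (1.04 to 1.52), Mll4SI one of 0.366% (0.263 to 0.497) and Mll3/4SI one of 0.558% (0.399 to 0.759). The intervals of the 4 libraries overlapped only for Mll4SI and Mll3/4SI. As ratios to control these were 0.607 (0.472 to 0.779), 0.176 (0.122 to 0.249) and 0.268 (0.185 to 0.380). All 3 comparisons share the control library. Within Hashtag1 cells the shares were 2.42%, 1.26%, 0.495% and 0.635%, and within Hashtag2 cells 1.67%, 1.09%, 0.182% and 0.475%, so both labelled subsets had the highest share in control. With the denominator limited to cells in which fewer than 4 granulocyte genes were detected at 3000 UMIs, 92 of 395 control cells, 64 of 503 Mll3SI cells, 27 of 214 Mll4SI cells and 30 of 435 Mll3/4SI cells were erythroid. On that base the ratio for Mll4SI was 0.542 in place of 0.176, and the Mll3SI and Mll3/4SI ratios were 0.546 and 0.296. A share depends on every other cell in the gate, and fewer erythroid cells cannot be told apart from more cells of other kinds.

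**Figure D2:**
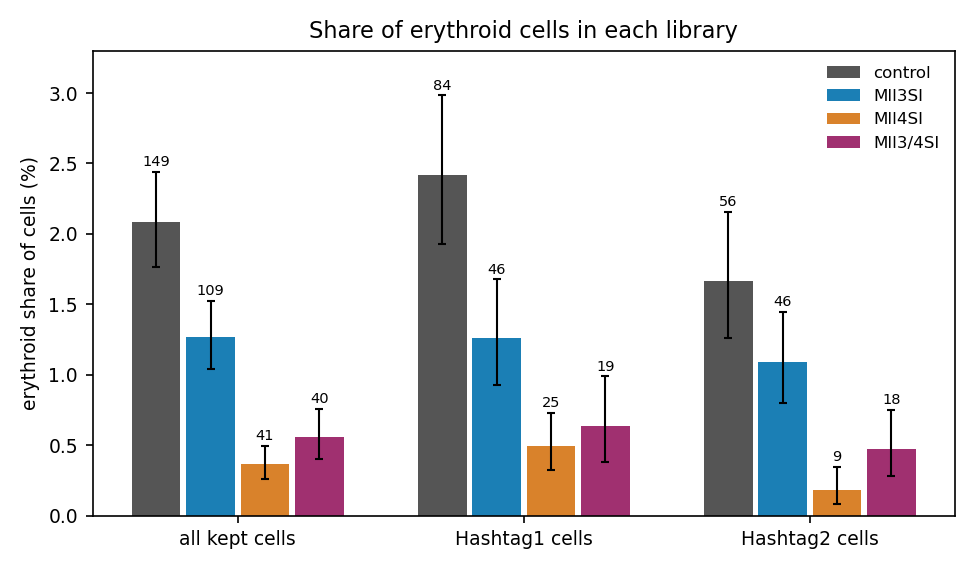
Share of kept cells that were erythroid (percent, bars from 0) in each library, with 95% Clopper-Pearson intervals and the number of cells above each bar. The share is 2.08% in control and is lower in each mutant library, with the lowest value, 0.366%, in Mll4SI.

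Most erythroid cells carried some granulocyte message, and a smaller part carried much of it. At 5000 UMIs, 134, 97, 38 and 32 erythroid cells had at least 3 genes of the 16-gene granulocyte list. In 13, 16, 10 and 2 erythroid cells (8.72%, 14.7%, 24.4% and 5%), over 1% of UMIs came from that list, and these cells held 87.8%, 92.8%, 96.3% and 59.0% of the list's UMIs in the erythroid sums. The median erythroid cell had 0.158%, 0.134%, 0.161% and 0.112%. Of these granulocyte-rich erythroid cells, 13, 15, 8 and 2 were among the highest doublet scores or carried both hashtags. The 1% limit was chosen after seeing the values. Gene results below come from all erythroid cells, and values without these cells are given beside them for some lists and genes. Where they are not given, both the counts of called genes and the genes called can differ without these cells.

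**Figure D3:**
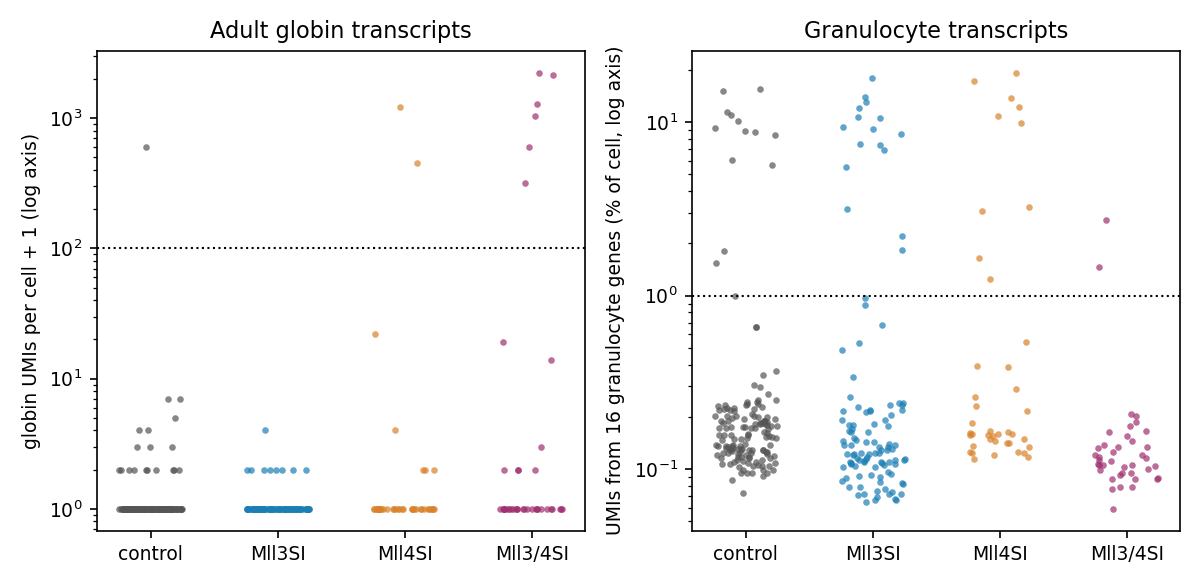
Every erythroid cell by its globin UMIs and by the percent of its UMIs from the granulocyte list, by library, with log axes and dotted lines at 100 globin UMIs and at 1%. Cells past the globin line number 1, 0, 2 and 6 and cells past the granulocyte line 13, 16, 10 and 2, and no cell is past both.

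The rule markers themselves differed little in level between libraries. Car1, the carbonic anhydrase of early erythroid cells (chromosome 3, 14766216 to 14808368), was at 3514, 3525, 4926 and 3124 CPM. Klf1, the erythroid Krüppel-like factor (chromosome 8, 84901928 to 84905291), was at 146, 119, 118 and 153 CPM. Gata1, the master erythroid factor, was at 124, 102, 126 and 141 CPM. No library was the highest for all 3. Epor was at 52.5, 59.4, 56.6 and 64.5 CPM, Rhd, a Rhesus blood group protein, at 78.0, 61.6, 79.0 and 106 CPM, and Ermap, an erythroid membrane protein, at 209, 175, 197 and 192 CPM. These 6 genes chose the cells, and none of them was 1.5-fold apart from control in any mutant library, the log2 ratios of CPM + 1 lying between -0.34 and 0.49. Leaving out the granulocyte-rich erythroid cells, 1 of the 6 was at least 1.5-fold higher in Mll4SI.

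Genes with the detection pattern most like the markers were ranked in control by the share of erythroid cells with a UMI less the share among cells with at most 1 marker, both at 5000 UMIs, and they were Car2, Blvrb, Apoe, Slc25a21, Abcb4, Nfia, Gm15915, Bcl11a, Selenow and Gclm in rank order. Car2 was detected in 96.0% of erythroid cells against 10.5% of the others, and Slc25a21, a mitochondrial carrier, in 71.8% against 0.122%. The level of Blvrb, biliverdin reductase B, was 525, 519, 503 and 727 CPM, and that of Bcl11a, the repressor of fetal globin, 443, 420.1, 429 and 408 CPM. Apoe, apolipoprotein E, stood at 569.7, 535, 170.4 and 378 CPM, lowest in Mll4SI with a log2 ratio of -1.74 (-1.93 to -1.56). In cells with at most 1 marker the Apoe ratio was -2.63 in Mll4SI, so the difference was not particular to erythroid cells. Gm15915, a gene without an assigned function, was at 166, 72.9, 133 and 139 CPM, lowest in Mll3SI.

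Later-stage cells were a small subset in every library. A cell was counted as later-stage where at least 3 of 12 genes of red cell maturation (such as Alas2, Slc4a1, Ank1, Rhag, Hemgn and Cldn13, none of the list being a rule marker) were detected at 5000 UMIs. These were 13, 9, 7 and 9 cells, or 8.72%, 8.26%, 17.1% and 22.5% of erythroid cells, which relative to control gave ratios of 0.946 (0.379 to 2.24), 1.96 (0.715 to 4.71) and 2.58 (1.06 to 5.82). At this limit the interval for Mll3/4SI excluded 1 and the other 2 did not. With at least 2 of the 12 genes the shares were 30.2%, 14.7%, 29.3% and 40.0%, and the ratios were 0.486 (0.272 to 0.815), 0.969 (0.510 to 1.63) and 1.32 (0.779 to 2.06), so that Mll3SI excluded 1 and Mll3/4SI did not. Among cells with at least 5 rule markers the Mll3/4SI ratio at 3 genes was 2.21 (0.931 to 4.85). The number of genes past a limit describes a range of cells, not a cell type.

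Globin message was confined to few cells. The adult globins Hba-a1, Hba-a2, Hbb-bt and Hbb-bs together reached 100 UMIs, a limit chosen after seeing the values, in 1 control cell, 0 of 109 Mll3SI cells (a count of 0 allows up to 2.75%), 2 Mll4SI cells and 6 Mll3/4SI cells. The share was 0.671% (0.0170 to 3.68) for control, 4.88% (0.596 to 16.5) for Mll4SI and 15% (5.71 to 29.8) for Mll3/4SI. The control cell held 602 globin UMIs, the Mll4SI cells 1215 and 452, and the Mll3/4SI cells 2244, 2148, 1291, 1042, 601 and 318. Of the 6 Mll3/4SI cells, 5 were later-stage, and by hashtag 1 was Hashtag1 and 5 were Hashtag2. No cell with at most 1 marker reached 100 globin UMIs in any library, although 3.57%, 2.39%, 1.37% and 3.03% of them had at least 1.

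Summed globin levels rested on those few cells. Hbb-bs, an adult beta globin (chromosome 7, 103826534 to 103828096), was at 40.0, 2.20, 474 and 4079 CPM, and Hba-a1, an adult alpha globin, at 50.8, 0.367, 333 and 91.8 CPM. The globin genes are near-identical copies whose reads the counting may split, so single members are uncertain. The cells past the limit held 94.1%, 98.4% and 99.5% of all globin UMIs in control, Mll4SI and Mll3/4SI. With later-stage cells left out, the log2 ratio of Hbb-bs to control was -0.05 in Mll4SI in place of 3.54. In Mll3/4SI it was 7.50 in place of 6.64, and 1 cell with 601 globin UMIs and 2 stage genes remained there. Hba-a1 in Mll3/4SI was -0.04 in place of 0.84. Hba-a2 had 0 UMIs in Mll3SI and 61 in control. Of those 61, 56 were in 1 cell, so a bound on the fold would rest on that cell and is not given.

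For the gene comparisons, UMIs were summed over the erythroid cells of a library and expressed as CPM, and a gene was called higher or lower at a ratio of at least 1.5-fold. Among 6402 genes with a mean of at least 20 CPM, Mll3SI had 71 higher (1.11%) and 77 lower (1.2%). Mll4SI had 162 higher (2.53%) and 149 lower (2.33%). Mll3/4SI had 115 higher (1.8%) and 376 lower (5.87%). The counting interval left out 0 and the direction was the same in both hashtags for 31 and 74 of these genes in Mll3SI, for 97 and 141 in Mll4SI and for 108 and 359 in Mll3/4SI, higher genes first. The erythroid cells numbered 84, 46, 25 and 19 in Hashtag1 and 56, 46, 9 and 18 in Hashtag2. With median-of-ratios size factors in place of CPM Mll3/4SI had 188 higher and 262 lower. The percentages are the background for every list below, and the median log2 ratio of all genes tested was -0.01, 0.02 and -0.08. Without the granulocyte-rich erythroid cells, 6323 genes were tested. The shares higher and lower were 0.712% and 1.25% for Mll3SI, 2.67% and 4.6% for Mll4SI, and 2.07% and 6.42% for Mll3/4SI. Similar shares did not mean the same genes. Of the 71 genes called higher in Mll3SI with all cells, 27 were still called higher. Mll4SI kept 81 of its 162 higher genes, whereas Mll3/4SI kept 102 of 115. Lower calls were kept by 50 of 77, 111 of 149 and 269 of 376 genes, libraries in that order. The smaller mutant libraries have the wider counting intervals, since their erythroid cells held 2728053, 1607897 and 1503785 UMIs against 4703976 in control.

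Of the 16 tested genes on a list of 22 for the red cell membrane and skeleton, 0 were called in Mll3SI, 2 were higher and 1 lower in Mll4SI, and 3 were higher in Mll3/4SI, with medians of 0.00, 0.05 and 0.24. Rhag, the Rhesus-associated glycoprotein, was at 80.4, 57.2, 103 and 142 CPM, with a log2 ratio of 0.35 (0.08 to 0.62) for Mll4SI and of 0.82 (0.58 to 1.07) for Mll3/4SI. Cldn13, a claudin of erythroid cells, was at 23.8, 19.1, 35.5 and 41.2 CPM, and Ank1, the ankyrin that ties the red cell skeleton to the membrane, at 57.4, 56.5, 81.5 and 81.1 CPM. For these 3 genes Mll4SI and Mll3/4SI lay above control and Mll3SI below it, but only Rhag and Cldn13 in Mll3/4SI were past 1.5-fold. Hemgn, an erythroid nuclear protein, was at 52.3, 28.2, 65.3 and 69.8 CPM and lower in Mll3SI, with a log2 ratio of -0.87 (-1.28 to -0.51). Of the 7 stage genes that passed the level filter, 0 were higher and 1 lower in Mll3SI, 2 higher in Mll4SI and 4 higher in Mll3/4SI, and the list medians were -0.31, 0.50 and 0.66. Leaving out the granulocyte-rich cells, 5 were higher in Mll4SI and 4 in Mll3/4SI, and the medians were -0.27, 0.76 and 0.61. Without later-stage cells, but with the granulocyte-rich ones, the medians were -0.52, -0.25 and 0.18. For Mll3/4SI the ratios of Rhag and Cldn13 were then 0.18 and -0.46. Rhag, Cldn13, Ank1 and Hemgn are among the 12 genes that define a later-stage cell, so both their level beside the share of such cells and its drop without them follow in part from the definition. Icam4, the Landsteiner-Wiener blood group protein, stood apart at 52.5, 60.1, 26.1 and 71.8 CPM, lower in Mll4SI by a log2 ratio of -0.98 (-1.52 to -0.53).

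Several haem synthesis genes were also highest in Mll3/4SI, and their ratios moved towards 0 without later-stage cells. Of 20 listed genes 15 were tested, with 0 called in Mll3SI, 2 higher in Mll4SI and 3 higher and 1 lower in Mll3/4SI, and the medians were -0.02, 0.04 and 0.26. Leaving out the granulocyte-rich cells, 14 were tested, with 4 higher in Mll4SI and 4 higher and 0 lower in Mll3/4SI. Cpox, coproporphyrinogen oxidase, was at 153, 128, 238 and 239 CPM, Alad, aminolaevulinate dehydratase, at 93.8, 79.2, 70.9 and 144 CPM and Tmem14c, a mitochondrial carrier for porphyrin, at 338, 343, 433 and 527 CPM. All 3 were highest in Mll3/4SI, with log2 ratios of 0.63, 0.61 and 0.64. Without later-stage cells the ratios were -0.06, 0.10 and -0.05. Alas1, the housekeeping first enzyme of the pathway, was the lower gene at 31.5, 44.7, 39.2 and 19.9 CPM, and Fech, which inserts the iron, was higher in Mll4SI at 30.4, 31.2, 49.8 and 36.6 CPM. The erythroid first enzyme Alas2 was under the level filter.

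Iron handling genes differed singly. Ftl1, the ferritin light chain, stood at 726, 749, 879 and 1158 CPM, and the log2 ratio in Mll3/4SI was 0.67 (0.59 to 0.76) and 0.50 without later-stage cells. Slc40a1, the iron exporter ferroportin, was at 46.1, 53.5, 46.6 and 27.3 CPM and lower in Mll3/4SI at -0.74 (-1.28 to -0.27). Tfrc, the transferrin receptor, at 101, 83.9, 117 and 90.4 CPM, was not 1.5-fold apart from control in any library. Over the 17 tested of 18 iron genes, 0 were called in Mll3SI, 1 was higher in Mll4SI (Iscu, a scaffold for iron-sulfur clusters), and 1 was higher and 1 lower in Mll3/4SI.

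Most of the erythroid transcription factors stayed within 1.5-fold of control. Of 26 tested of 29, 1 was higher in Mll3SI, 1 lower in Mll4SI and 2 lower in Mll3/4SI, and the list medians were -0.12, -0.02 and -0.21. Tal1, a core partner of Gata1, was at 101, 84.7, 122 and 108 CPM, Myb, the factor of dividing progenitors, at 768, 743, 595 and 609 CPM and Gata2 at 109, 86.1, 77.7 and 84.5 CPM. Control had the highest level of Myb and of Gata2. Spi1, the myeloid factor PU.1 that opposes Gata1, was at 35.9, 55.0, 49.1 and 19.3 CPM, with log2 ratios of 0.60, 0.44 and -0.86. Without the granulocyte-rich cells these were 0.68, -0.66 and -0.91, so the Mll4SI value changed sign. Zfpm1, the Gata1 cofactor FOG1, was lower in Mll4SI at 126, 90.2, 82.7 and 128 CPM. Of the 18 genes of stem and multipotent cells only 6 passed the level filter, with medians of -0.32, -0.43 and -0.04, and Meis1, a stem cell homeobox factor, was at 77.2, 65.2, 41.7 and 93.8 CPM. Leaving out the granulocyte-rich cells, the medians of this stem cell list were -0.26, -0.38 and -0.45. The 18 tested genes of the H3K4 methyltransferase complexes, to which MLL3 and MLL4 belong, had medians of -0.01, 0.00 and -0.21 with 0 called.

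Erythropoietin and Kit signalling had 12 tested genes of 20, with 0 called in Mll3SI, 1 higher in Mll4SI and 1 higher in Mll3/4SI. The gene higher in Mll4SI was Gab2, an adaptor of receptor signalling, at 84.8, 109.6, 183 and 107 CPM and a log2 ratio of 1.10 (0.89 to 1.33). The other was Pim1, a survival kinase, at 30.2, 33.0, 36.7 and 64.5 CPM and 1.07 (0.71 to 1.48) in Mll3/4SI. Kit itself, on which the cells were gated, was at 231, 219, 225 and 179.5 CPM. No gene of the mitosis list was called, although 18 of its 20 genes were above 0 in Mll3/4SI with a median of 0.22, and 0 of 22 genes of mitochondrial respiration and redox were called in any library.

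Over all erythroid cells, class I antigen presentation genes were lower in Mll4SI and higher in Mll3/4SI. Of the 14 tested class I genes, 0 were higher and 1 lower in Mll3SI, 6 were lower in Mll4SI with all 14 below 0, and 3 were higher in Mll3/4SI with all 14 above 0, and the medians were -0.11, -0.56 and 0.48. Within Hashtag1 cells the medians were 0.02, -0.55 and 0.0037, and within Hashtag2 cells -0.35, -0.90 and 0.73. B2m, the light chain of class I molecules, was at 968, 794, 649.9 and 1256 CPM, and H2-K1, a classical heavy chain, at 795, 788, 596 and 1045 CPM. H2-Q7, a nonclassical heavy chain, was at 222, 202, 82.1 and 358 CPM, with a log2 ratio of -1.42 (-1.71 to -1.17) for Mll4SI and of 0.69 (0.54 to 0.84) for Mll3/4SI. By hashtag, its Mll3/4SI ratio was -0.03 in Hashtag1 and 0.95 in Hashtag2 cells. For these 3 genes Mll4SI was the lowest library and Mll3/4SI the highest. Class I genes form a family of near-identical copies, and reads may be split between them. In cells with at most 1 marker the medians of the same list were -0.10, -0.57 and 0.47, and without the granulocyte-rich erythroid cells they were -0.17, -0.63 and 0.40. The difference was thus of similar size outside the erythroid cells. Leaving out the granulocyte-rich erythroid cells, 9 of 15 tested class I genes were lower in Mll4SI and 3 were higher in Mll3/4SI.

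Interferon-stimulated genes were higher in Mll3/4SI. Only 5 of 19 measured genes passed the level filter, and 3 of them were higher in Mll3/4SI, 0 in Mll3SI and 0 in Mll4SI, with medians of 0.03, -0.33 and 0.70. Among them were Bst2, the viral tether tetherin, at 121, 123, 88.3 and 208 CPM, and Ly6e at 206, 194, 193 and 335 CPM. In cells with at most 1 marker the Mll3/4SI median was 0.53. Leaving out the granulocyte-rich erythroid cells, the Mll3/4SI median was 0.58, with 2 of the 5 genes higher. Outside that list, Isg20, an interferon-induced exonuclease, was at 30.4, 22.4, 34.8 and 91.1 CPM and Ube2l6, the ISG15-conjugating enzyme, at 24.9, 22.4, 20.5 and 68.5 CPM. In Mll3/4SI the log2 ratio of Isg20 was 1.55 (1.23 to 1.93) in erythroid cells and 1.38 in cells with at most 1 marker, and that of Ube2l6 1.43 (1.07 to 1.86) and -0.15.

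**Figure D4:**
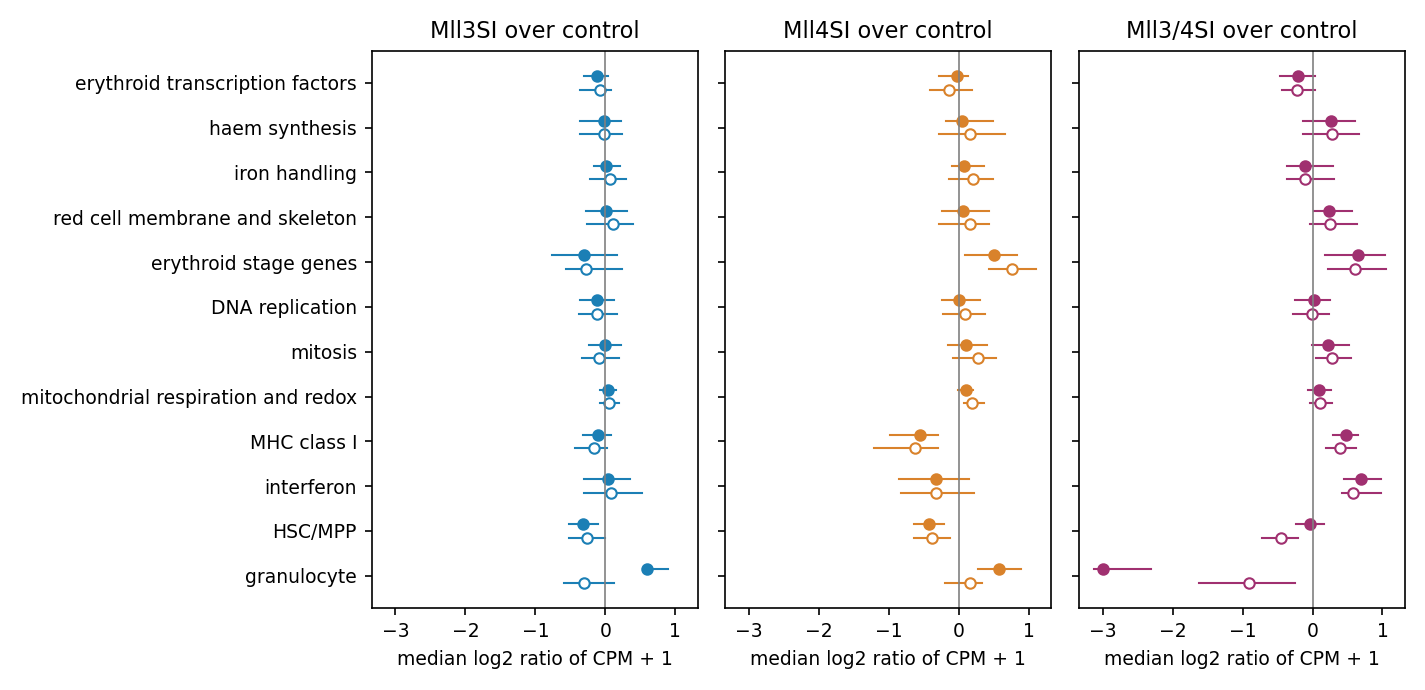
Median log2 ratio to control of the tested members of each gene list in erythroid cells, by mutant library, filled for all erythroid cells and open without those over 1% granulocyte UMIs, with lines between the medians of the members' lower and upper counting limits. MHC class I lies at -0.56 in Mll4SI and at 0.48 in Mll3/4SI, and the granulocyte list at -2.99 in Mll3/4SI moves to -0.90 without those cells.

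Granule genes were among the lowest genes of Mll3/4SI, and the granulocyte-rich cells carried most of their message. Camp, the cathelicidin of neutrophil granules, was at 2149, 4723, 6549 and 143 CPM. Its log2 ratio was 1.33 in Hashtag1 and -0.77 in Hashtag2 cells of Mll3SI, and 1.98 and -3.17 in those of Mll4SI. Fcnb, a ficolin, and Cd177, a neutrophil surface protein, had 0 UMIs in Mll3/4SI, at least 16.2-fold and at least 14.6-fold lower than in control. Their control UMIs, 152 and 137, lay in 21 cells each. These bounds count the granulocyte-rich cells, and none without those cells is given. The summed list was at 12207, 19699, 28311 and 2470 CPM in erythroid cells and 153749, 135522, 209464 and 176927 CPM in cells with at most 1 marker, and its median log2 ratio was 0.60, 0.58 and -2.99. By hashtag the medians were 0.73, 1.26 and -2.25 in Hashtag1 cells and -0.79, -3.17 and -3.37 in Hashtag2 cells. The Mll3SI and Mll4SI medians thus differed in sign between hashtags. Without the granulocyte-rich cells the median was -0.31, 0.15 and -0.90. In those remaining cells Mpo, myeloperoxidase, was at 129, 212, 25.2 and 17.8 CPM and Elane, neutrophil elastase, at 79.4, 219, 21.5 and 14.96 CPM, both lower in Mll4SI and Mll3/4SI than in control. In Mll3SI the hashtags went opposite ways, with log2 ratios of -0.39 in Hashtag1 and 0.79 in Hashtag2 cells for Mpo and -0.40 and 1.55 for Elane. Other lineages' lists were low in erythroid cells: the 16 megakaryocyte genes summed to 78.9, 48.4, 45.4 and 69.2 CPM, and the basophil and mast cell genes to 102, 132, 92.0 and 137 CPM. Monocyte genes, at 433, 793, 1057 and 79.8 CPM, followed the granulocyte list.

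Single genes with the largest differences, by the rule for named genes, were partly those that also differed outside the erythroid cells. In Mll3SI 4 of the 8 lowest genes were the adult globins, led by Hba-a1 at -5.24. Of the 239 control UMIs of Hba-a1, 225 were in 1 cell, and without later-stage cells the Mll3SI globin median was 0.024. The lowest gene that is not a globin was Tpm3-rs7 (chromosome 14, 113314608 to 113316754), a related sequence of the tropomyosin gene Tpm3 with which reads may be shared. It was at 112, 2.93, 63.4 and 2.66 CPM and was detected in 133, 7, 32 and 4 cells. Its log2 ratios were -4.84 in Mll3SI and -4.94 in Mll3/4SI, and in cells with at most 1 marker -4.84 and -4.97. The uncharacterised gene 1700016D06Rik was at 55.7, 4.77, 43.5 and 3.99 CPM, low in the same 2 libraries. Pcdh7, a protocadherin, was at 82.9, 21.6, 60.3 and 41.2 CPM, and Prkg1, a cyclic GMP-dependent kinase, at 56.3, 15.8, 21.8 and 31.3 CPM. Among the higher genes of Mll3SI, Echs1, a mitochondrial enzyme of fatty acid oxidation, was at 66.1, 135, 83.3 and 77.8 CPM, with a ratio of 1.01 (0.80 to 1.25) in erythroid cells and 0.17 in cells with at most 1 marker.

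In Mll4SI the highest ratios were those of Retnlg, a neutrophil resistin-like gene at 2.76, 5.50, 119 and 0 CPM, and of the globins Hbb-bs and Hbb-bt. The log2 ratio of Retnlg was 5.0, and 0.37 without the granulocyte-rich erythroid cells. Next came Bex4, an X-linked brain-expressed gene (X chromosome, 136138996 to 136140443), at 42.3, 31.2, 181 and 149 CPM and detected in 30, 24, 25 and 19 cells. It was thus high in both libraries with Xist, with log2 ratios of 2.07 (1.83 to 2.36) and 1.79 (1.53 to 2.10). Pdgfd, a platelet-derived growth factor, was at 19.3, 24.9, 64.7 and 16.6 CPM and Cited4, a transcriptional coactivator, at 17.4, 14.3, 54.1 and 40.6 CPM, both highest in Mll4SI. The lower genes of Mll4SI included Parm1, a mucin-like membrane protein, at 50.0, 32.6, 3.11 and 12.6 CPM, Nrgn, the calmodulin-binding protein neurogranin, at 49.1, 46.9, 7.46 and 27.3 CPM and Gcnt2, the enzyme of the I blood group, at 57.0, 36.3, 10.6 and 29.3 CPM. Parm1 and Gcnt2 were below control in all 3 mutant libraries. Lgals1, galectin 1, was at 116, 99.7, 29.9 and 109.7 CPM. In Mll3/4SI the higher genes included Ifitm3, an interferon-induced membrane protein, at 89.1, 68.5, 92.0 and 256 CPM with a ratio of 1.51 and of 1.21 in cells with at most 1 marker, and Mgst3, a microsomal glutathione transferase, at 29.8, 34.5, 42.9 and 75.8 CPM.

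Surface antibodies, a readout that the rule did not use, set erythroid cells apart from the others in every library. Antibody UMIs were taken as log2 values centred on the mean of the 13 surface antibodies of a cell, and the difference is the median of erythroid cells less that of cells with at most 1 marker. CD150, a SLAM family receptor, was higher in erythroid cells by 3.60, 3.38, 4.29 and 4.47, and CD117, the Kit protein, by 2.01, 2.07, 1.74 and 1.92. CD11b, the myeloid integrin, gave -4.72, -4.07, -4.70 and -4.65, and CD16_32, the myeloid Fc receptors, -3.70, -3.51, -3.75 and -4.02. Gr1, a granulocyte antigen, gave -2.75, -2.20, -2.84 and -0.94, the smallest difference being in Mll3/4SI. Median centred Gr1 in cells with at most 1 marker was 3.64 in control and 0.87 in Mll3/4SI, the lowest library. For erythroid cells it was 0.88 in control and -0.07 in Mll3/4SI, again the lowest library. The small difference thus went with low Gr1 in the comparison cells, not with high Gr1 in erythroid cells. Median CD150 UMIs per erythroid cell were 34, 39, 76 and 56.5. A centred value depends on the other antibodies of the same cell, and differences between libraries also depend on staining, whose part was not tested.

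**Figure D5:**
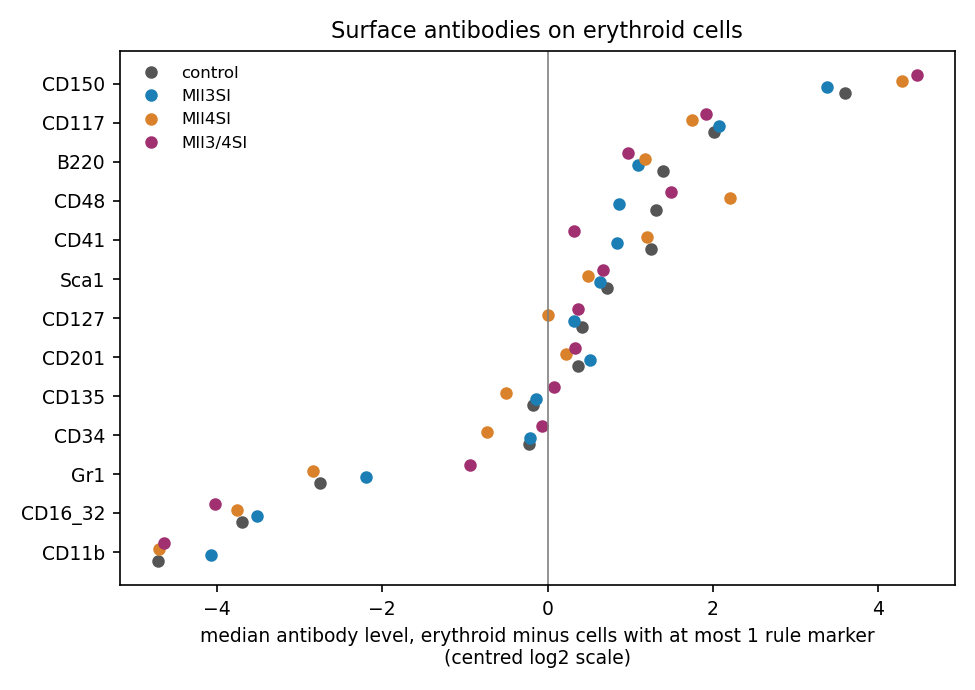
Median centred log2 antibody level of erythroid cells minus that of cells with at most 1 rule marker, for 13 surface antibodies and 4 libraries. CD150 and CD117 are above 0 and CD16_32 and CD11b below 0 in every library.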

How the data were processed

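Gene and antibody UMI counts per cell barcode, raw counts in 10x matrices, were deposited by the authors, made with Cell Ranger 7.1.0 and the mm10 genome per the submitters' processing notes. A barcode was kept if it had 500 or more detected genes, 1000 or more UMIs in genes and no more than 10% of these from mitochondrial genes. Counts of erythroid cells were summed per library, scaled to CPM and compared as log2 ratios of CPM + 1, with exact conditional binomial intervals for the ratio of 2 counts. No model was fitted, since each group had 1 library. Doublets were scored with Scrublet in scanpy 1.11.5 (0.8% per 1000 cells) and were kept in the main values. Hashtag classes came from a 2-component mixture (scikit-learn 1.9.0). The ratios and intervals were tested on Poisson counts simulated from the summed control profile, with 3-fold changes. The simulation held no spread between cells and no doublets, so it does not cover either. Named genes were the rule markers, listed genes, the 10 genes most alike in detection, and per library the 8 highest and 8 lowest ratios with the same direction in both hashtags, leaving out mitochondrial, ribosomal and sex genes. Genes of the sex and label checks fall outside that rule, and some genes of the lists are not reported here. The members, lists and rules were chosen with earlier results of these data known. Gene positions are GRCm38 (GENCODE M21), and promoters RefSeq GRCm38.p6. Alternatives changed the marker minimum, depth, doublets, denominator, hashtag, scaling, filter and added CPM. Other analyses used numpy 2.4.6, scipy 1.17.1, pandas 2.3.3 and matplotlib 3.10.9 in Python 3.11.15.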

Additional observations from a re-analysis of the deposited data

How the results depend on the processing

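With 1 library per group, the counting intervals leave out differences between animals, and library, group and, for Mll4SI and Mll3/4SI, sex-linked transcripts cannot be told apart. Mll4SI and Mll3/4SI had 41 and 40 erythroid cells, which limits their gene ratios. No paired analysis was possible because each group has 1 library and the result comes from no test.

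The erythroid share stayed below control under every alternative run, the Mll3SI ratio lying between 0.459 and 0.693, that of Mll4SI between 0.109 and 0.542, and that of Mll3/4SI between 0.260 and 0.313. The Mll3SI ratio was 0.459 after thinning to 3000 UMIs, and the Mll4SI ratio was 0.109 in Hashtag2 cells and 0.542 over cells with few granulocyte genes. Counts of genes past 1.5-fold depended on the settings. Adding 5 CPM left 50 lower in Mll3SI. A filter of 5 CPM gave Mll3SI 299 higher and 290 lower, Mll4SI 512 and 515, and Mll3/4SI 363 and 987. Median-of-ratios scaling gave 188 higher in Mll3/4SI, and at least 5 markers gave 128 higher in Mll3SI. Only later-stage cells (13, 9, 7 and 9) gave 603 and 756, 758 and 717, and 554 and 983, and leaving out cells with 3 or more markers of another cell type (13, 10, 2 and 6 cells left) gave 586 and 937, 1191 and 1484, and 513 and 1348; these sets hold under 20 cells per library, so only counts were computed. The cause was not tested, except that by construction the filter of 5 CPM tested 9478 genes in place of 6402.

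With at least 5 markers, Ifitm1 in Mll3/4SI was -0.51 in place of 0.95, Prkg1 in Mll3/4SI 0.32 in place of -0.83, and the median of the stem cell list in Mll3SI 0.0059 in place of -0.32. The next 2 settings were chosen after seeing the data. Without cells over 1% granulocyte UMIs, 45 genes were higher in Mll3SI and 291 lower in Mll4SI, and in Mll3SI Camp was -0.40, Ngp -0.57, the granulocyte median -0.31 and the monocyte median -0.21. Without later-stage cells, Mll3SI had Hbb-bs at 0.18 and the globin median at 0.024. In Mll4SI, Hba-a1 was -0.13, Hba-a2 -0.98, Hbb-bs -0.050, Sptb -0.35 and the stage median -0.25. In Mll3/4SI, Cldn13 was -0.46, Cpox -0.062, Hba-a1 -0.039, Hba-a2 -0.98 and Tmem14c -0.046. For the globin and granulocyte genes the cells left out had held most of the UMIs; for the others the cause was not tested.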
